A study of Homo sapiens with 18 samples.

Results

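This report describes 45 interferon-stimulated genes in MDA-MB-231 cells, a human breast adenocarcinoma line that lacks the oestrogen and progesterone receptors, under doxorubicin and under overexpression of ZMYND8. The genes were chosen by name as a textbook interferon-stimulated family, and all 45 were found by symbol among the 60603 genes of each of the 2 deposited count tables. The study asked how ZMYND8, a chromatin reader, alters the transcriptome of doxorubicin-treated cells. RNA was sequenced from 18 libraries in 9 conditions of 2 biological replicates each. In the transient experiment, cells were transfected with empty vector or FLAG-ZMYND8 and after 24 h received vehicle or 0.6 µM doxorubicin for 48 h. Its conditions were control, control plus doxorubicin, and FLAG-ZMYND8 plus doxorubicin. In the inducible experiment, cells carried a stably integrated pInducer20 lentiviral vector, selected with G418, that expresses GFP or FLAG-ZMYND8 when 250 ng/mL doxycycline is given. These GFP cells and ZMYND8 cells were sequenced without doxorubicin, after 6 h and after 48 h of 0.6 µM doxorubicin, with doxycycline started 4 h earlier and kept throughout. One line was made per construct and the labels do not say whether it was a clone or a pool, so a property of a line and an effect of its transgene cannot be told apart.

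Interferons are cytokines that act through surface receptors, Janus kinases and a transcription factor complex that holds STAT2 and IRF9 and binds the interferon-stimulated response element (ISRE) in the promoters of these genes. The products recognise foreign RNA, block viral entry, assembly or translation, and attach the ubiquitin-like protein ISG15 to other proteins. In tumour cells the same genes are also known to respond to DNA damage, through sensing of nucleic acid in the cytosol.

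Library totals were 18300628 to 23724398 counts in the 12 inducible libraries. In the transient experiment 5 libraries held 5729294 to 5972396 counts and the second doxorubicin library held 24713822. That library and the second library labelled FLAG-ZMYND8 plus doxorubicin differed by little more than counting noise, with a chi-square per degree of freedom of 1.39 over all genes and 1.19 per member gene, against at least 9.71 and 22.9 for the other 14 pairs of transient libraries. The 2 libraries carry different labels, so the transient counts of called members are given with and without them. ZMYND8 itself stood at 208 to 209 CPM (the counts of a gene scaled to a common library size) in untreated GFP cells and at 922 to 927 CPM in untreated ZMYND8 cells. In the transient libraries labelled FLAG-ZMYND8 plus doxorubicin it stood at 125 and 160 CPM, below the 199 and 219 CPM of the controls, so these are called by their label. Of the 17 cell type markers examined, the 4 known from this line, VIM, CD44, EGFR and AXL, had a lowest level of 185 CPM. ESR1, PGR, CD3E, CD68, MS4A1 and CDH5 were at or below 0.80 CPM. The epithelial EPCAM was at 27.003 to 37.4 CPM in GFP cells, 6.89 to 11.5 CPM in ZMYND8 cells and 28.2 to 44.5 CPM in the transient libraries, and CDH1 ran from 0.58 to 21.7 CPM. The 6 leukocyte markers summed to 15.5 to 23.2 CPM in GFP cells, 2.66 to 6.75 CPM in ZMYND8 cells and 3.13 to 7.06 CPM in the transient libraries. Most of this was CD14, at 14.5 to 19.8 CPM in GFP and 2.01 to 3.11 CPM in ZMYND8 cells, while PTPRC and LYZ were at or below 3.95 CPM. The endothelial PECAM1 and VWF were at or below 5.59 CPM. The part of these markers in the differences between the lines was not tested. Genes with at least 1 count numbered 22477 to 23609 in the inducible libraries at 0 and 6 h and 30201 to 30566 at 48 h. The part of this number in the 48 h results was not tested.

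The ISRE core was searched as GAAANNGAAA on both strands of RefSeq promoter windows, from 250 bases before to 50 after each gene's start (build GRCh38.p14). Of the 45 members, 38 had a window, and 24 of these 38 (63.2%) held at least 1 match, against 996 of 27305 windows of the same length (3.65%). The gamma-activated sequence TTCNNNGAA was found in 10 of the 38 (26.3%) and in 7.88% of all windows. Of 41 ISRE matches in member windows, 38 began before the start site. The median over all 41 was 79 bases before it, with matches after the start taken as negative distances. The 14 members with a window and no match included RSAD2, CMPK2, OAS1, IRF9, STAT2 and XAF1. Only the spacing in these letters was searched. The windows of RSAD2, OAS1 and XAF1, for example, held GAAACGAAA, a shorter spacing that was not counted. Only 1 window was kept per gene, so other starts of a gene were not searched. The window lay inside the gene as counted for XAF1, BATF2 and UBE2L6, which had no match. It also did so for ISG15, IFI27, IFI44L, IFITM1, IFITM3 and MX1, which had a match. Matches of these letters are a description, not a binding site. The 170 bases before the start are printed, 5′ to 3′ on the gene's strand with each ISRE match in capitals, for members on which the results turn. IFI44L, IFI6 and OAS3 rose at 48 h, IFIT1, IFIT3, ISG15 and SAMD9 stood higher in ZMYND8 than in GFP cells, IFI27 stood lower there, and BST2 fell at 48 h.
IFI44L, chr1:78620278-78620447, plus strand: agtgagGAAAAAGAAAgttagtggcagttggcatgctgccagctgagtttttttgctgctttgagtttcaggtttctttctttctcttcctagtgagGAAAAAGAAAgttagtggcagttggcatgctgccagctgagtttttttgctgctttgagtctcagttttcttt
IFI6, chr1:27672193-27672362, minus strand: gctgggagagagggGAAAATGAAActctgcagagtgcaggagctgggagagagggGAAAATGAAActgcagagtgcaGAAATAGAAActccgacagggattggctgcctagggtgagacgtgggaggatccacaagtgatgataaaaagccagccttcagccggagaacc
OAS3, chr12:112938304-112938473, plus strand: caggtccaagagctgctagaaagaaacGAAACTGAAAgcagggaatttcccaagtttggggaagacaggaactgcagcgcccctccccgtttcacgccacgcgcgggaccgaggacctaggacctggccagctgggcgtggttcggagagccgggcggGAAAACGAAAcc
IFIT1, chr10:89392453-89392622, plus strand: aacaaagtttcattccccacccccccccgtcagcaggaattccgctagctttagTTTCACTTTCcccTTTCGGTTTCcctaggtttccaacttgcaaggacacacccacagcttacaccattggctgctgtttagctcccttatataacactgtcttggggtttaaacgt
IFIT3, chr10:89327827-89327996, plus strand: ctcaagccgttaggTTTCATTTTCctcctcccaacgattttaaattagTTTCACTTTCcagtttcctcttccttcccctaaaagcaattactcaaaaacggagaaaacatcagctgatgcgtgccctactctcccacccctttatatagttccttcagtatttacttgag
ISG15, chr1:1013327-1013496, plus strand: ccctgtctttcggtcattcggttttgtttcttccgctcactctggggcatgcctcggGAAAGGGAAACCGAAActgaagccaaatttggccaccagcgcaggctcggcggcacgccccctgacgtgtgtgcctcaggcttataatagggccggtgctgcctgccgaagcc
SAMD9, chr7:93117980-93118149, minus strand: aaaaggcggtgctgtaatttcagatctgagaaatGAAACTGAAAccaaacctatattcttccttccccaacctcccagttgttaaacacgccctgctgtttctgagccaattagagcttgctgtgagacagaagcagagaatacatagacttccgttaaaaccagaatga
IFI27, chr14:94110566-94110735, plus strand: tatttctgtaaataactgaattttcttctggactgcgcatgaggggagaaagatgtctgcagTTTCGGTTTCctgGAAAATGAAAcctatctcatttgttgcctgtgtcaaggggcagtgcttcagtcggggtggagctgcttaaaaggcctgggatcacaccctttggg
BST2, chr19:17405631-17405800, minus strand: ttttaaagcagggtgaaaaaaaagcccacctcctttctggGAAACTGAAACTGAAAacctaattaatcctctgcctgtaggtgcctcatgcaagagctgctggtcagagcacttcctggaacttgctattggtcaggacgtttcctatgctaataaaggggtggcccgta
IFI6, IFI44L and BST2 each held the same 10-base match 2 times, and the pair of matches in ISG15 and in BST2 overlapped. Of the members called higher at 48 h in GFP cells, 32 had a window and 19 of these held a match. RSAD2, CMPK2 and OAS1, which also rose, had none with the spacing searched, although RSAD2 and OAS1 held the shorter GAAACGAAA.

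Several members lie side by side. In the build hg38 coordinates of the count tables, IFIT2, IFIT3, IFIT1 and IFIT5 follow one another on chromosome 10 between 89283694 and 89420997. OAS1, OAS3 and OAS2 follow one another on chromosome 12 between 112906783 and 113011723. CMPK2 and RSAD2 lie head to head on chromosome 2 between 6840570 and 6898239, and PARP9 and DTX3L do so on chromosome 3 between 122527924 and 122575203. Overlapping exons limit some values: 45.5% of the exon bases of IRF9, 37.5% of IFITM1, 22.7% of IFITM2 and 10.8% of TRIM22 also lie in exons of another gene on the same strand, where a read pair counts for neither gene. Values of the near-identical IFITM genes and of USP18, which has a close copy on the same chromosome, are uncertain because reads that fit more than 1 place in the genome were not counted.

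In GFP cells most members were lower after 6 h of doxorubicin than in untreated cells, and most were higher after 48 h, though not always the same ones. Untreated cells were not sequenced separately for each time, so hours of doxorubicin cannot be told apart from hours of doxycycline or culture. The summed level of the 45 members was 3950 and 4029 CPM in the untreated libraries, 3428 and 3225 CPM at 6 h and 5496 and 5412 CPM at 48 h. At 6 h 28 members were lower and 3 were higher (edgeR, adjusted p of at most 0.05 over all 18801 genes tested), with a median log2 fold change of -0.303, against 25.8% of all genes called lower and 22.1% called higher. At 48 h 38 were higher and 5 were lower, with a median of 0.897, against 32.4% and 31.8% of all genes. In ZMYND8 cells 20 members were lower and 3 were higher at 6 h, against 19% and 21.8% of all genes, with a median of -0.138. At 48 h 37 were higher and 4 were lower, against 31.6% and 30.8%, with a median of 0.763. The sums there were 6588 and 6774 CPM untreated, 5612 and 5562 CPM at 6 h and 9857 and 9720 CPM at 48 h. The family was taken up with this fall and rise already known from these libraries, so the counts describe it and are not new evidence of it. Scaling by library totals instead of TMM moved the median of all genes at 48 h to 0.274 in GFP and 0.251 in ZMYND8 cells, and the members' median to 1.142 and 0.969.

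A fall at 6 h followed by a rise at 48 h was called for 22 members in GFP cells and 17 in ZMYND8 cells, and for 13 in both: HERC5, IFIT1, IFIT2, IFIT3, IFITM1, MX1, OAS1, OAS2, PARP9, SAMD9L, STAT2, UBE2L6 and XAF1. Of all genes, 3.02% did so in GFP cells, 2.1% in ZMYND8 cells and 0.745% in both. Another 13 members in GFP cells and 18 in ZMYND8 cells rose at 48 h with no call at 6 h (16.3% and 18.3% of all genes), among them ISG15, OAS3, IFI44L, RSAD2, CMPK2, USP18 and ADAR in each line. The 2 lines share no library, and across the 45 genes their log2 fold changes had a Spearman rho of 0.773 at 6 h and 0.802 at 48 h, a description over genes that are not independent of each other. Without the first 6 h library 1 member instead of 3 was called higher at 6 h in GFP cells. Between the lines no member was called in opposite directions at 6 h, and 2 were at 48 h, GBP1 and IFITM3.

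**Figure D1:**
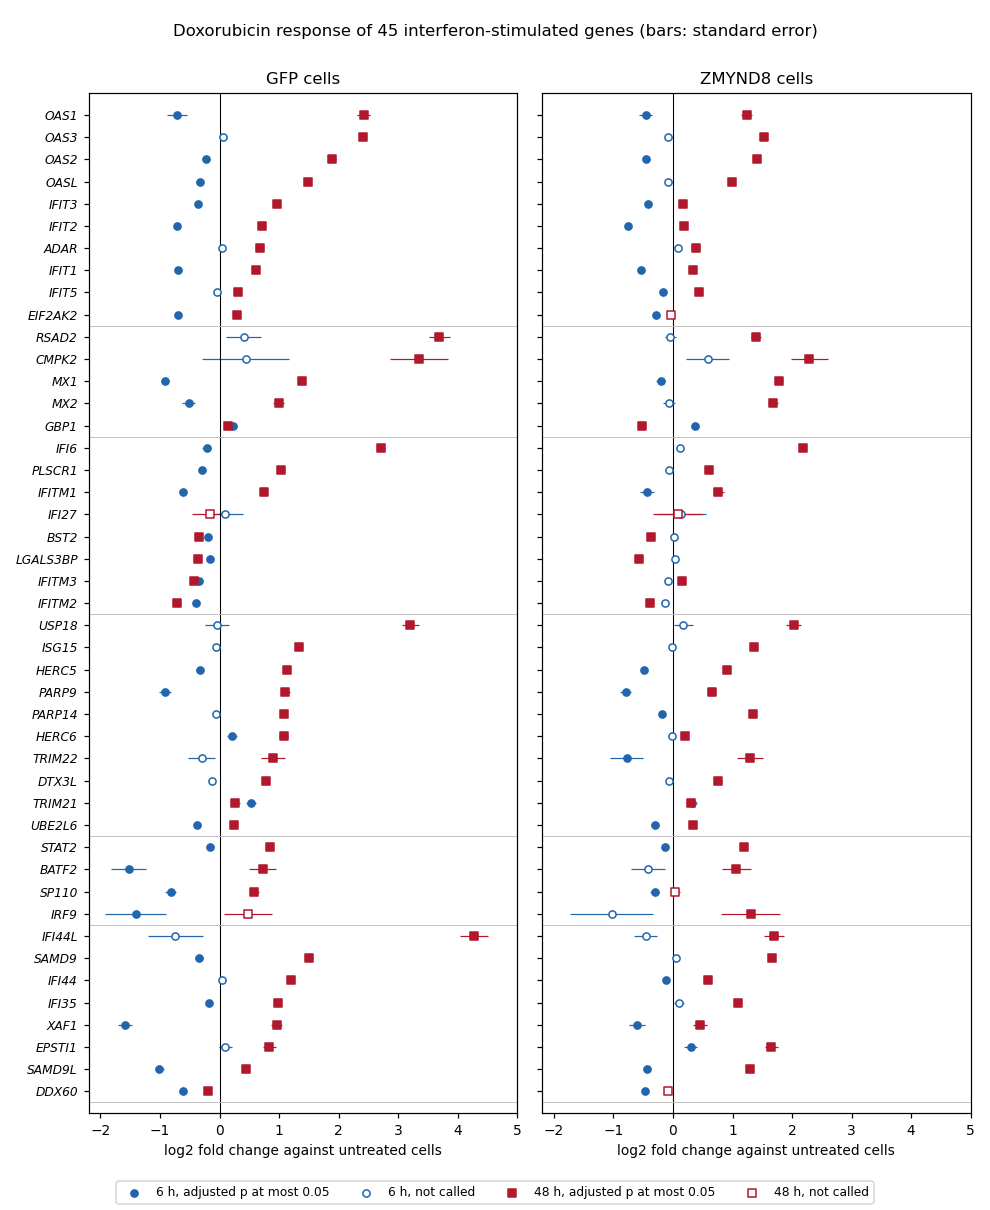
Log2 fold change (horizontal axis) of each of the 45 members after 6 h (blue circles) and 48 h (red squares) of doxorubicin against untreated cells, in GFP cells (left) and ZMYND8 cells (right). Bars are standard errors, open symbols are not called, and grey lines separate the 6 role groups in the order of the text. The 48 h points lie to the right of 0 for 39 of 45 members in each line.

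The first group holds 10 proteins that bind double-stranded RNA or RNA 5′ ends. In GFP cells 7 of them fell at 6 h and all 10 rose at 48 h, while in ZMYND8 cells 7 fell and then 9 rose. The IFIT proteins bind viral RNA ends and block translation. IFIT1 stood at 96.3 and 94.6 CPM untreated, 59.001 and 58.98 CPM at 6 h and 145 and 145 CPM at 48 h in GFP cells, and at 478 and 485, 354 and 307, and 614 and 602 CPM in ZMYND8 cells. Its log2 fold change at 48 h was 0.60 ± 0.052 (SE) in GFP cells and 0.34 ± 0.045 (SE) in ZMYND8 cells. In each line the 6 h libraries were the lowest and the 48 h libraries the highest, with no overlap. IFIT2 stood at 142 and 148 CPM untreated, 85.6 and 90.6 CPM at 6 h and 236 and 238 CPM at 48 h in GFP cells, and at 1000 and 1055, 609.8 and 602, and 1188 and 1143 CPM in ZMYND8 cells. IFIT3, a partner of IFIT1, stood at 211 and 211 CPM untreated, 164 and 165 CPM at 6 h and 408 and 413 CPM at 48 h in GFP cells, and at 1161 and 1178, 881 and 864, and 1341 and 1288 CPM in ZMYND8 cells. For IFIT2 and IFIT3 the 48 h rise was 0.71 and 0.96 on the log2 scale in GFP cells but 0.18 and 0.17 in ZMYND8 cells, whose untreated libraries already lay above the 48 h libraries of GFP cells. IFIT5, another family member, stayed within 46.7 to 83.8 CPM in all 12 inducible libraries.

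The 2′-5′-oligoadenylate synthetases make the second messenger that activates RNase L. OAS1 stood at 5.22 and 5.91 CPM untreated, 3.31 and 3.48 CPM at 6 h and 29.3 and 30.1 CPM at 48 h in GFP cells, and at 11.9 and 14.2, 10.6 and 8.46, and 30.6 and 31.4 CPM in ZMYND8 cells. OAS2 stood at 29.9 and 28.5 CPM untreated, 25.6 and 24.4 CPM at 6 h and 109 and 108 CPM at 48 h in GFP cells, and at 53.6 and 56.3, 39.5 and 41.1, and 143 and 150.4 CPM in ZMYND8 cells. OAS3 stood at 31.2 and 35.4 CPM untreated, 36.01 and 33.2 CPM at 6 h and 174 and 178 CPM at 48 h in GFP cells, and at 50.9 and 54.9, 49.1 and 51.3, and 152 and 153 CPM in ZMYND8 cells. All 3 rose at 48 h in both lines, by 2.42, 1.90 and 2.405 on the log2 scale in GFP cells and by 1.24, 1.42 and 1.52 in ZMYND8 cells (adjusted p of at most 2.2e-11). OAS3 had no call at 6 h in either line, whereas OAS1 and OAS2 fell. OASL, a catalytically inactive relative that assists RNA sensing, stood at 45.6 and 44.4 CPM untreated, 34.8 and 36.6 CPM at 6 h and 128 and 124 CPM at 48 h in GFP cells, and at 455 and 476, 453 and 421, and 944 and 913 CPM in ZMYND8 cells. Its 6 libraries of ZMYND8 cells all lay above its 6 libraries of GFP cells. EIF2AK2, the kinase PKR that halts translation on double-stranded RNA, stood at 112 and 118 CPM untreated, 70.2 and 72.4 CPM at 6 h and 137 and 146 CPM at 48 h in GFP cells, and at 94.8 and 94.6, 78.2 and 76.6, and 90.2 and 95.5 CPM in ZMYND8 cells. Its 48 h value was above the untreated libraries in GFP cells only, with a log2 fold change of -0.03 ± 0.048 (SE) in ZMYND8 cells (adjusted p = 0.62) that became 0.18 with scaling by library totals. ADAR, which edits adenosine in double-stranded RNA, stood at 231 and 227 CPM untreated, 234 and 239 CPM at 6 h and 362 and 372 CPM at 48 h in GFP cells, and at 245 and 246, 248.6 and 273, and 326 and 317 CPM in ZMYND8 cells. The 6 h libraries of ADAR were not called in either line and the 48 h libraries were the highest in each.

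The antiviral GTPases and the radical SAM pair form the second group of 5, all of which rose at 48 h in GFP cells and 4 of which did so in ZMYND8 cells. MX1, which traps viral nucleocapsids, stood at 48.2 and 45.9 CPM untreated, 24.6 and 25.3 CPM at 6 h and 124 and 122 CPM at 48 h in GFP cells, and at 19.9 and 19.3, 17.2 and 16.8, and 66.8 and 68.5 CPM in ZMYND8 cells. MX2, its paralogue at the nuclear envelope, stood at 13.6 and 15.7 CPM untreated, 10.7 and 9.69 CPM at 6 h and 28.3 and 29.8 CPM at 48 h in GFP cells, and at 15.1 and 14.9, 15.1 and 13.6, and 49.2 and 46.8 CPM in ZMYND8 cells. In GFP cells both were lowest at 6 h, and at 48 h MX1 had risen by 1.39 ± 0.051 (SE) and MX2 by 0.99 ± 0.089 (SE) on the log2 scale. RSAD2, the radical SAM enzyme viperin that makes a chain-terminating nucleotide, stood at 1.01 and 0.738 CPM untreated, 1.15 and 1.18 CPM at 6 h and 11.5 and 11.3 CPM at 48 h in GFP cells, and at 17.8 and 20.04, 19.5 and 17.3, and 49.9 and 49.7 CPM in ZMYND8 cells. CMPK2, the nucleotide kinase encoded beside it, stood at 0.203 and 0.105 CPM untreated, 0.262 and 0.161 CPM at 6 h and 1.46 and 1.81 CPM at 48 h in GFP cells, and at 1.06 and 0.7002, 0.986 and 1.63, and 4.23 and 4.296 CPM in ZMYND8 cells. Both were near 1 CPM or less in untreated GFP cells and rose there by 3.69 ± 0.18 (SE) and 3.35 ± 0.48 (SE) on the log2 scale, and CMPK2 had few counts in these libraries. GBP1, a guanylate-binding GTPase strongly induced by interferon gamma, stood at 53.2 and 51.3 CPM untreated, 63.9 and 58.3 CPM at 6 h and 59.2 and 56.4 CPM at 48 h in GFP cells, and at 38.5 and 42.8, 51.6 and 54.2, and 28.6 and 28.1 CPM in ZMYND8 cells. It was called in opposite directions in the lines at 48 h, with 0.15 ± 0.061 (SE) in GFP cells (adjusted p = 0.039) and -0.53 ± 0.068 (SE) in ZMYND8 cells (adjusted p = 1.6e-07).

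Membrane and secreted proteins, a group of 8, moved in both directions. In GFP cells 7 fell at 6 h, and at 48 h 3 had risen and 4 had fallen. In ZMYND8 cells 1 fell at 6 h, and 4 rose and 3 fell at 48 h. IFI6, a protein of endoplasmic reticulum membranes that restricts flaviviruses, stood at 26.5 and 27.3 CPM untreated, 22.3 and 24.1 CPM at 6 h and 181 and 173 CPM at 48 h in GFP cells, and at 30.8 and 30.2, 35.2 and 31.04, and 137 and 139 CPM in ZMYND8 cells. PLSCR1, a lipid scramblase with antiviral activity, stood at 43.5 and 48.3 CPM untreated, 38.3 and 36.3 CPM at 6 h and 94.2 and 94.2 CPM at 48 h in GFP cells, and at 35.96 and 33.7, 32.97 and 33.3, and 51.97 and 53.2 CPM in ZMYND8 cells. Both had their highest levels at 48 h, and the log2 rise of IFI6 was 2.72 ± 0.057 (SE) in GFP and 2.18 ± 0.056 (SE) in ZMYND8 cells. The IFITM proteins block fusion of viruses with endosomes. IFITM1 stood at 56.8 and 58.5 CPM untreated, 38.6 and 36.4 CPM at 6 h and 98.9 and 94.8 CPM at 48 h in GFP cells, and at 8.99 and 8.58, 6.36 and 6.62, and 15.04 and 14.7 CPM in ZMYND8 cells. IFITM2 stood at 146 and 149 CPM untreated, 118 and 106 CPM at 6 h and 88.9 and 91.7 CPM at 48 h in GFP cells, and at 50.4 and 57.8, 48.4 and 50.3, and 42.4 and 40.7 CPM in ZMYND8 cells. IFITM3 stood at 648 and 673 CPM untreated, 554 and 487 CPM at 6 h and 509 and 475 CPM at 48 h in GFP cells, and at 347 and 376, 336 and 349, and 411 and 396 CPM in ZMYND8 cells. IFITM1 rose at 48 h by about the same amount in both lines, 0.75 and 0.76 on the log2 scale, although its level was several times lower in ZMYND8 cells. IFITM2 fell in both, and IFITM3 fell by 0.42 in GFP cells and rose by 0.16 in ZMYND8 cells (adjusted p = 0.0089). BST2, or tetherin, which holds budding virions at the cell surface, stood at 219.8 and 219.8 CPM untreated, 198 and 185 CPM at 6 h and 177 and 171 CPM at 48 h in GFP cells, and at 176 and 184, 177 and 186, and 139 and 142 CPM in ZMYND8 cells. LGALS3BP, a secreted glycoprotein that binds galectins, stood at 869.6 and 874 CPM untreated, 815 and 744 CPM at 6 h and 711 and 644 CPM at 48 h in GFP cells, and at 465 and 506, 472 and 523, and 332 and 319.5 CPM in ZMYND8 cells. Both were lowest at 48 h in each line, with log2 fold changes in GFP and ZMYND8 cells of -0.34 and -0.36 for BST2 and -0.36 and -0.57 for LGALS3BP. IFI27, a mitochondrial protein, differed widely between replicates of GFP cells, with 28.4 and 87.5 CPM untreated, and was called at neither time in either line.

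The enzymes of ISG15, ubiquitin and ADP-ribose conjugation make up the next group of 10, all of which rose at 48 h in both lines. ISG15, the ubiquitin-like modifier, stood at 129 and 129.6 CPM untreated, 127 and 122 CPM at 6 h and 341 and 313 CPM at 48 h in GFP cells, and at 469.7 and 454, 465 and 449.7, and 1151 and 1207 CPM in ZMYND8 cells. It had no call at 6 h, and its 48 h rise was 1.34 ± 0.046 (SE) in GFP cells and 1.35 ± 0.043 (SE) in ZMYND8 cells from a level that differed between the lines. USP18, the protease that removes ISG15 and dampens the receptor, stood at 2.28 and 2.43 CPM untreated, 2.36 and 2.19 CPM at 6 h and 21.97 and 21.5 CPM at 48 h in GFP cells, and at 3.797 and 3.33, 4.04 and 3.94, and 14.2 and 14.7 CPM in ZMYND8 cells. HERC5, the main ligase for ISG15 in human cells, stood at 47.04 and 47.2 CPM untreated, 36.01 and 38.97 CPM at 6 h and 104 and 103 CPM at 48 h in GFP cells, and at 198 and 188, 143 and 133, and 358 and 365 CPM in ZMYND8 cells. HERC6, its relative, stood at 19.8 and 20.3 CPM untreated, 23.3 and 23.1 CPM at 6 h and 42.7 and 41.9 CPM at 48 h in GFP cells, and at 69.9 and 71.5, 74.03 and 65.4, and 80.4 and 82.6 CPM in ZMYND8 cells. Among these, HERC5 fell at 6 h in both lines, HERC6 was slightly higher at 6 h in GFP cells (0.21 ± 0.079 (SE)), and USP18 was not called at 6 h. PARP9 and DTX3L act as a complex that modifies histones and viral proteins. PARP9 stood at 21.1 and 19.7 CPM untreated, 10.4 and 11.2 CPM at 6 h and 43.3 and 44.5 CPM at 48 h in GFP cells, and at 18.7 and 18.5, 10.7 and 10.7, and 28.1 and 30.2 CPM in ZMYND8 cells. PARP14, an ADP-ribosyl transferase, stood at 68.03 and 62.5 CPM untreated, 63.7 and 61.9 CPM at 6 h and 136 and 139 CPM at 48 h in GFP cells, and at 65.5 and 66.4, 57.2 and 59.1, and 169.96 and 165 CPM in ZMYND8 cells. PARP9 fell at 6 h by 0.92 in GFP and 0.79 in ZMYND8 cells on the log2 scale while its neighbour DTX3L was not called (-0.13 and -0.07). UBE2L6, the conjugating enzyme for ISG15, fell at 6 h and rose at 48 h in both lines within 42.9 to 95.7 CPM. TRIM21, an antibody receptor and ubiquitin ligase, was higher at both times in both lines, by 0.26 to 0.53 on the log2 scale. TRIM22 was at or below 6.57 CPM in every inducible library.

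Of the 4 transcription regulators, all fell at 6 h in GFP cells and 2 fell in ZMYND8 cells. STAT2, a subunit of the factor that drives this family, stood at 63.4 and 63.97 CPM untreated, 56.7 and 57.8 CPM at 6 h and 114 and 116 CPM at 48 h in GFP cells, and at 60.1 and 57.6, 50.9 and 56.05, and 133 and 134 CPM in ZMYND8 cells. SP110, a nuclear body protein, stood at 24.9 and 24.5 CPM untreated, 14.6 and 13.3 CPM at 6 h and 36.8 and 37.3 CPM at 48 h in GFP cells, and at 29.4 and 30.98, 24.3 and 24.5, and 28.9 and 33.1 CPM in ZMYND8 cells. BATF2, a basic leucine zipper factor, stood at 2.64 and 2.11 CPM untreated, 0.945 and 0.696 CPM at 6 h and 3.91 and 3.95 CPM at 48 h in GFP cells, and at 1.62 and 1.71, 1.28 and 1.21, and 3.46 and 3.53 CPM in ZMYND8 cells. STAT2 rose at 48 h by 0.85 ± 0.049 (SE) and 1.19 ± 0.049 (SE) on the log2 scale, and SP110 rose in GFP cells by 0.58 ± 0.078 (SE) against 0.04 ± 0.077 (SE) in ZMYND8 cells, where it was not called. BATF2 fell by 1.52 at 6 h in GFP cells, one of the largest early falls, and had -0.42 in ZMYND8 cells, where it was not called (adjusted p = 0.26). IRF9, the DNA-binding subunit of the STAT complex, was counted at 0.105 to 1.22 CPM in the inducible libraries, with 45.5% of its exon bases shared with another gene, and its calls rest on few reads.

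The other 8 interferon-induced proteins held both the largest fall at 6 h and the largest rise at 48 h of the family in GFP cells. XAF1, a pro-apoptotic binding partner of XIAP, stood at 24.9 and 26.9 CPM untreated, 8.56 and 8.62 CPM at 6 h and 49.6 and 51.02 CPM at 48 h in GFP cells, and at 9.88 and 11.5, 5.72 and 8.51, and 15.5 and 14.1 CPM in ZMYND8 cells. Its 6 h fall was -1.59 in GFP cells and -0.60 in ZMYND8 cells. IFI44L, a cytosolic antiviral protein, stood at 0.558 and 0.422 CPM untreated, 0.262 and 0.321 CPM at 6 h and 9.77 and 9.34 CPM at 48 h in GFP cells, and at 3.52 and 3.28, 2.71 and 2.21, and 11.2 and 10.8 CPM in ZMYND8 cells. IFI44, its neighbour on chromosome 1, stood at 20.5 and 20.7 CPM untreated, 20.5 and 21.998 CPM at 6 h and 47.9 and 47.5 CPM at 48 h in GFP cells, and at 197 and 198, 184 and 179, and 301 and 293 CPM in ZMYND8 cells. IFI44L rose at 48 h by 4.26 ± 0.23 (SE) in GFP cells, from below 1 CPM, and both lines ended near 10 CPM, whereas IFI44 remained higher in ZMYND8 cells throughout. SAMD9, which with SAMD9L restricts poxviruses and slows translation, stood at 48.4 and 46.4 CPM untreated, 37.7 and 36.9 CPM at 6 h and 129.6 and 140.3 CPM at 48 h in GFP cells, and at 231 and 230.03, 250.03 and 229.96, and 743 and 717 CPM in ZMYND8 cells. SAMD9L stood at 38.7 and 35.8 CPM untreated, 18.4 and 18.6 CPM at 6 h and 48.7 and 52.5 CPM at 48 h in GFP cells, and at 43.7 and 45.1, 34.1 and 31.7, and 107 and 111 CPM in ZMYND8 cells. The 2 neighbours rose in both lines at 48 h, SAMD9 by 1.51 and 1.66 and SAMD9L by 0.44 and 1.29 on the log2 scale. DDX60, a helicase that assists RNA sensing, stood at 62.9 and 59.96 CPM untreated, 37.6 and 42.6 CPM at 6 h and 53.8 and 53.6 CPM at 48 h in GFP cells, and at 194 and 197, 141 and 143, and 187 and 184 CPM in ZMYND8 cells. It was lowest at 6 h in each line and was called lower at 48 h in GFP cells by 0.19, a call that was lost under scaling by library totals, where its value was 0.05. EPSTI1 stood at 10.5 and 12.4 CPM untreated, 12.3 and 12.3 CPM at 6 h and 19.3 and 21.6 CPM at 48 h in GFP cells, and at 10.5 and 8.97, 11.6 and 12.2, and 29.7 and 31.2 CPM in ZMYND8 cells, and it was called higher at 6 h in ZMYND8 cells (0.30 ± 0.12 (SE)) but not in GFP cells (0.10 ± 0.11 (SE)). IFI35, an interferon-induced leucine zipper protein, was at 42.7 to 94.9 CPM in GFP cells and 13.6 to 30.5 CPM in ZMYND8 cells.

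**Figure D2:**
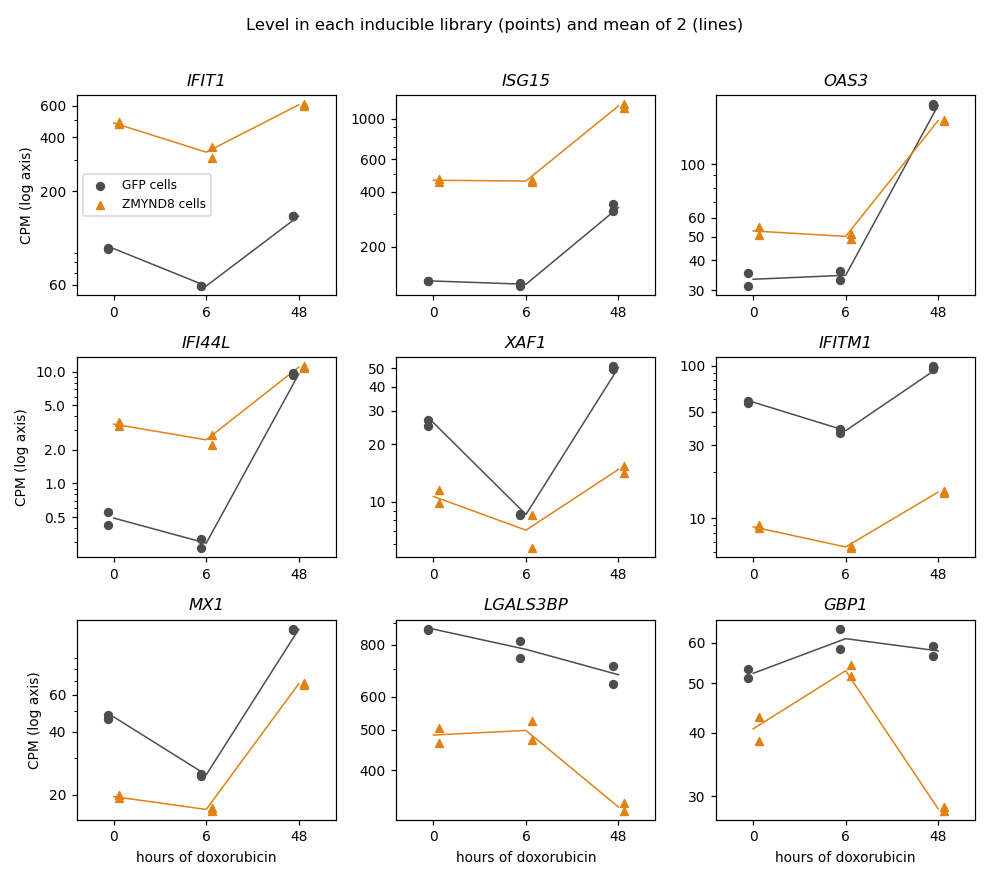
CPM on a log axis against hours of doxorubicin for 9 members, with 1 point per inducible library (grey circles, GFP cells; orange triangles, ZMYND8 cells) and lines through the mean of 2. IFIT1, XAF1, IFITM1 and MX1 dip at 6 h in both lines, ISG15 and OAS3 do not, and LGALS3BP falls to its lowest level at 48 h.

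Before any doxorubicin the 2 lines differed in this family, and the difference ran in both directions. In untreated ZMYND8 cells 21 members were higher and 17 were lower than in untreated GFP cells, against 28.7% and 29.5% of all genes, and 7 were not called. The log2 difference ran from -2.72 to 4.42 with a median of 0.034. RSAD2 differed by 4.42 ± 0.17 (SE), OASL by 3.37 ± 0.05 (SE), IFI44 by 3.26 ± 0.052 (SE) and IFIT2 by 2.83 ± 0.043 (SE), and 10 members in all were at least 4-fold higher. IFITM1 was the only member at least 4-fold lower, at 8.58 and 8.99 CPM against 56.8 and 58.5 CPM, followed by IFI27 (-1.87), IFI35 (-1.75), IFITM2 (-1.44), IRF9 (-1.41), XAF1 (-1.27) and MX1 (-1.26). Of these values, that of IFI27 rests on untreated GFP libraries that differed widely from each other, and that of IRF9 on few reads. By role, 8 of 10 RNA-binding members were higher and 7 of 8 membrane and secreted members were lower. A promoter ISRE match was present in 10 of 17 windows of the higher members and 11 of 15 of the lower ones. After 6 h of doxorubicin 23 members were higher and 13 lower in ZMYND8 cells (28.9% and 26.6% of all genes), and after 48 h 18 were higher and 22 lower (28.4% and 31.6%). Across the 3 time points 14 members were higher each time (17.3% of all genes), among them IFIT1, IFIT2, IFIT3, ISG15, HERC5, OASL, IFI44, RSAD2 and SAMD9. Another 13 were lower each time (18.4%), among them the 3 IFITM genes, MX1, IFI27, IFI35 and LGALS3BP. ADAR, IFI6, OAS3, SP110 and USP18 were higher in untreated ZMYND8 cells and lower at 48 h (2.06% of all genes), and no member did the reverse (1.39%).

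**Figure D3:**
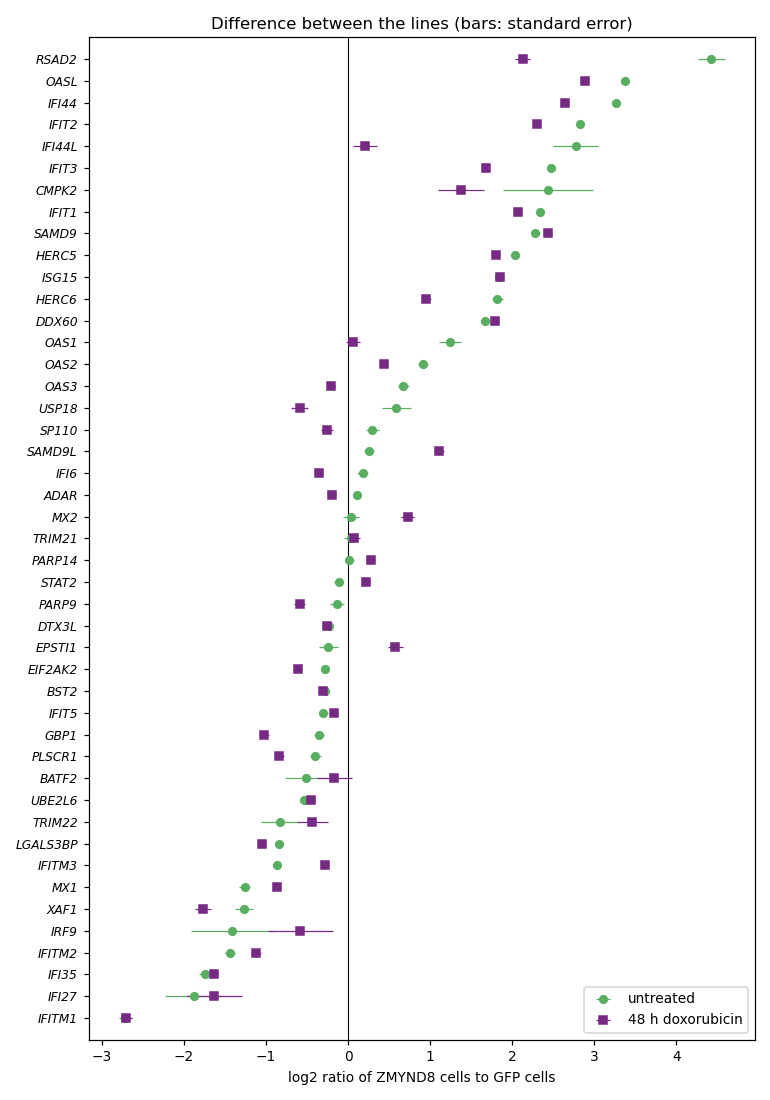
Log2 ratio of ZMYND8 to GFP cells for the 45 members, sorted by the untreated value, without doxorubicin (green circles) and after 48 h (purple squares), with standard errors. RSAD2 and IFI44L move towards 0 at 48 h, by 2.30 and 2.57 on the log2 scale, while IFITM1 stays at -2.72 and -2.70.

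The response to doxorubicin was compared between the lines by the interaction in the same fit. Hours of transgene induction ran with hours of doxorubicin, so their parts in it cannot be told apart. At 6 h 12 members had a higher response in ZMYND8 than in GFP cells and 0 had a lower one, against 7.86% and 5.52% of all genes. All 12 had fallen in GFP cells, from -0.20 for BST2 to -1.59 for XAF1 on the log2 scale, and 5 of them (EIF2AK2, MX1, SAMD9L, SP110 and XAF1) had also fallen in ZMYND8 cells, by less. With scaling by library totals 6 members were called higher and 4 lower. The 12 became 6 without the second untreated GFP library and 7 without the first untreated ZMYND8 library. At 48 h 22 members had a lower response in ZMYND8 cells and 8 a higher one, against 15.8% and 12.7% of all genes. Of the 21 members that were higher in untreated ZMYND8 cells, 16 had a lower response, 1 had a higher one (SAMD9L) and 4 were not called, while of the 17 that were lower there 5 had a lower and 3 a higher response. The untreated libraries enter both quantities, so these counts are not independent of each other. The lower responses were led by IFI44L (-2.57 ± 0.32 (SE)), RSAD2 (-2.30 ± 0.22 (SE)), OAS1 (-1.18 ± 0.16 (SE)) and USP18 (-1.18 ± 0.2 (SE)). The higher ones were SAMD9L (0.85), EPSTI1 (0.82), MX2 (0.69), IFITM3 (0.58), MX1 (0.40), STAT2 (0.33), IFITM2 (0.32) and PARP14 (0.27). For ISG15 the interaction was 0.02 ± 0.062 (SE) and was not called (adjusted p = 0.89).

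In the transient experiment the 2 doxorubicin libraries differed from each other in this family. IFIT1 stood at 93.5 and 103 CPM in control, 60.6 and 252 CPM with doxorubicin and 290.2 and 251 CPM in the libraries labelled FLAG-ZMYND8 plus doxorubicin. RSAD2 stood at 0.763 and 1.04 CPM in control, 1.39 and 13.7 CPM with doxorubicin and 12.2 and 12.8 CPM in the libraries labelled FLAG-ZMYND8 plus doxorubicin. ISG15 stood at 126 and 87.9 CPM in control, 114 and 324 CPM with doxorubicin and 688 and 359 CPM in the libraries labelled FLAG-ZMYND8 plus doxorubicin. For each of these the first doxorubicin library was near the controls or below them, and the second doxorubicin library and both libraries labelled FLAG-ZMYND8 were well above them. Of the 45 members, 26 were above both controls in the first doxorubicin library and 10 below both, against 38 and 4 in the second, 37 and 2 in the first library labelled FLAG-ZMYND8 plus doxorubicin, and 35 and 4 in the second. The second doxorubicin library was at least 2-fold above the first for 16 members and at least 2-fold below it for 0. The control libraries themselves were at least 2-fold apart for 4 members, IFI44L, IFITM1, IFITM3 and SAMD9. Shares of all genes for these counts between single libraries were not computed, so the counts only describe the members.

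With both doxorubicin libraries, 5 members were higher and 0 lower than in control (2.98% and 2.15% of all 15697 genes tested), with a median log2 fold change of 0.679. They were OAS3, SAMD9, SAMD9L, IFI6 and PARP14. OAS3 stood at 30.1 and 34.97 CPM in control, 102 and 104 CPM with doxorubicin and 157 and 106 CPM in the libraries labelled FLAG-ZMYND8 plus doxorubicin. SAMD9 stood at 17.7 and 37.1 CPM in control, 68.8 and 117 CPM with doxorubicin and 115 and 119.98 CPM in the libraries labelled FLAG-ZMYND8 plus doxorubicin. In these 5 the first doxorubicin library also lay above both controls, which it did not for the IFIT genes. It lay above both controls for 26 members in all, most of them not called. IFI6 was at 22.3 and 18.8 CPM in control, 32.5 and 66.3 CPM with doxorubicin and 77.8 and 63.7 CPM in the libraries labelled FLAG-ZMYND8 plus doxorubicin. Without the second doxorubicin library 1 member was called and the median was 0.202, and without the first 19 were called and the median was 0.851. Without the first or the second control library 1 and 3 were called. Scaling by library totals moved the median of all genes to 0.148 and gave 10 members, with 676 of all genes called higher against 468. With the replicate number as a block 15 members were higher and 1 lower, with 1184 of all genes higher. The libraries labelled FLAG-ZMYND8 plus doxorubicin had 17 members higher and 0 lower than control (3.85% and 2.97% of all genes), with a median of 1.049. Among them were ISG15 (2.29 ± 0.45 (SE)), RSAD2 (3.76 ± 0.87 (SE)), OASL (2.45 ± 0.59 (SE)) and IFI44L (2.79 ± 0.57 (SE)). The count was 10 without its second library, 3 without its first, and 9 and 8 without the first and the second control. Without both second treated libraries it was 21 higher and 1 lower, and with the replicate block 26 higher and 1 lower. Against doxorubicin alone 0 members were called in either direction (0% of all genes), with 2 members, ISG15 and OAS2, at an unadjusted p of at most 0.05 in edgeR. DESeq2 also called 0 members. The second libraries of the 2 conditions are nearly identical, so this comparison cannot show the absence of a difference. The count was 3 without the second doxorubicin library. With both second treated libraries left out, 9 members were called higher than with doxorubicin alone, from 1 library on each side whose spread was taken from the controls.

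Antisense genes that lie within exons of an expressed gene had a median density of counts of 1.43 to 1.62 times that of the sense gene in the transient libraries, against 0.0711 to 0.1 times in the inducible ones. Counts of XAF1, SP110 and IFITM3, with 24.9% to 38.3% of exon bases opposite another gene, cannot be told apart from those of the neighbour there, and none of the 3 was called in a transient comparison. The sign of the log2 fold change at 48 h in GFP cells and in the transient doxorubicin libraries was the same for 43 of 45 members, with BST2, IFI27, IFITM2, IFITM3 and LGALS3BP below 0 in both. Without the second doxorubicin library it was the same for 38. For ZMYND8 cells at 48 h the sign was the same for 39 members, and for 34 without that library. With all libraries 39 of 45 members were above 0 in each of these comparisons, so agreement was likely beforehand. The share of all genes with the same sign was not computed, so the counts only describe the members. The 2 experiments share no library.

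**Figure D4:**
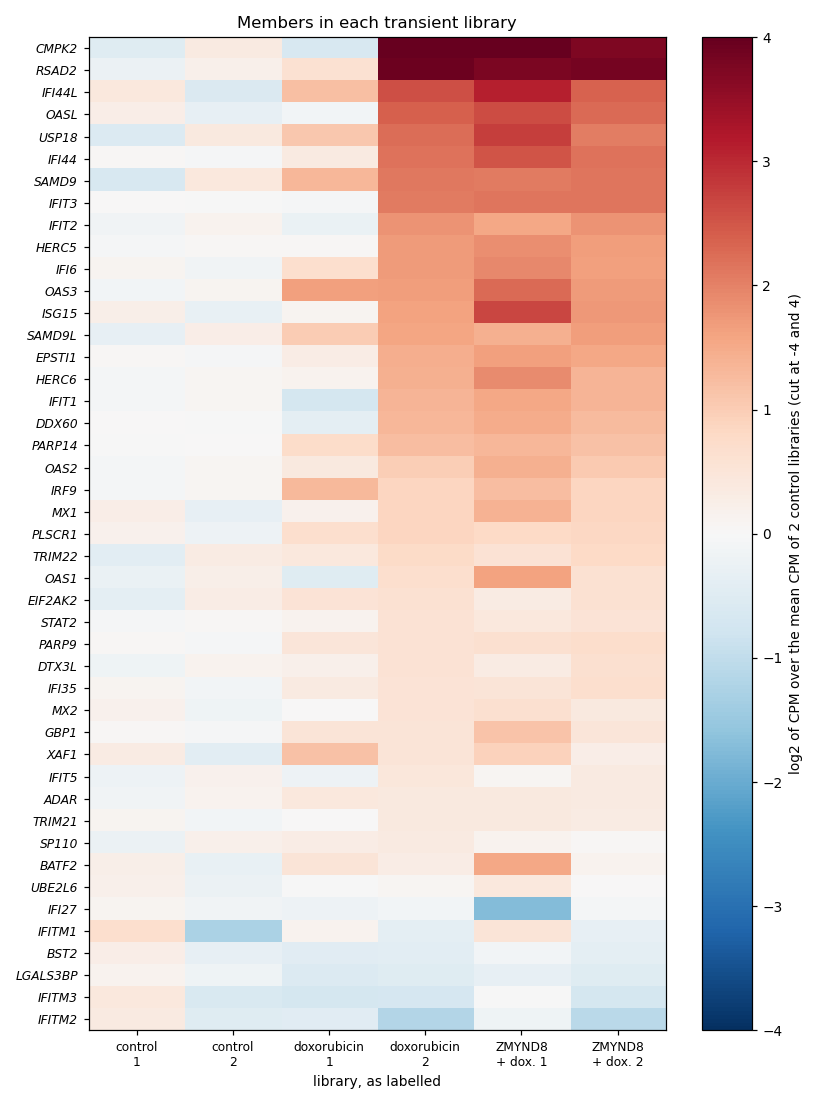
Log2 of CPM over the mean of 2 control libraries for the 45 members (rows) in each transient library (columns), red above and blue below the control mean, with colours cut at the ends of the scale. The second doxorubicin column is close to the second ZMYND8-labelled column and differs from the first doxorubicin column, in which IFIT1 (-0.70) and CMPK2 (-0.63) lie below the controls.

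Other genes of the interferon pathway were counted from lists set by role. Of 13 interferon genes, only IFNL1, a type III interferon, had enough counts in the inducible libraries to be tested. IFNB1 and IFNA1 had 0 counts in all 18 libraries, which allows up to 3 counts per library. The counts of IFNL1 were 2 and 0 untreated, 0 and 3 at 6 h and 16 and 17 at 48 h in GFP cells, and 13 and 20, 21 and 15, and 179 and 169 in ZMYND8 cells. It was higher at 48 h in both lines (3.64 ± 0.73 (SE) in GFP and 3.15 ± 0.31 (SE) in ZMYND8 cells on the log2 scale) and higher in untreated ZMYND8 than GFP cells (3.82 ± 0.72 (SE)). Of 6 receptor chains 2 were higher and 3 lower at 48 h in GFP cells, against 32.4% and 31.8% of all genes. IFNAR1, a chain of the type I receptor, was at 0.51 and IFNGR1, of the type II receptor, at -0.27. Of the receptor-bound kinases, TYK2 (0.43) was higher and JAK1 (-0.39) lower in GFP cells at 48 h.

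Of 12 sensors and adaptors 11 were tested, and in GFP cells 8 were lower and 2 higher at 6 h, and 5 were lower and 6 higher at 48 h. In ZMYND8 cells 7 were lower and 2 higher at 6 h, and 3 were lower and 7 higher at 48 h. Of all genes in GFP cells, 25.8% were lower and 22.1% higher at 6 h, and 31.8% and 32.4% at 48 h. In ZMYND8 cells these shares were 19% and 21.8% at 6 h, and 30.8% and 31.6% at 48 h. The same shares apply to the counts of the roles that follow. DDX58, the RNA sensor RIG-I, stood at 154 and 152 CPM untreated, 107 and 105 CPM at 6 h and 221 and 224 CPM at 48 h in GFP cells, and at 256 and 267, 239 and 228, and 557 and 532 CPM in ZMYND8 cells. In GFP cells it stood at -0.53 at 6 h and 0.54 at 48 h on the log2 scale, a fall and then a rise, as was called for 22 of the 45 members. SAMHD1, a dNTP hydrolase, was 1.01 on the log2 scale at 48 h, while MAVS, the adaptor of RIG-I, and IFI16, a DNA sensor, were -0.35 and -0.39. Of 5 negative regulators 0 were higher and 3 lower at 48 h in GFP cells (SOCS1 -0.64, SOCS3 -0.78, PIAS1 -0.15), whereas SOCS1 was 1.35 in ZMYND8 cells. IRF3, the factor activated by these sensors, was higher in GFP cells at 48 h (0.63) and the other 4 interferon regulatory factors tested were not called. Of 4 chemokines induced by interferon, 3 were higher at 48 h in GFP cells and 4 in ZMYND8 cells. CXCL11, a T cell attractant, stood at 0.253 and 0.791 CPM untreated, 1.31 and 1.28 CPM at 6 h and 5.55 and 5.01 CPM at 48 h in GFP cells, and at 2.904 and 2.84, 3.45 and 3.62, and 36.7 and 37.8 CPM in ZMYND8 cells, and CCL5 rose by 3.70 and 3.92 on the log2 scale. CXCL9 had at most 15 counts in any library and 4 to 15 in each 48 h library of the inducible experiment. Of 11 class I antigen presentation genes 6 passed the filter, and 1 was higher (HLA-B, 0.64) and 1 lower (NLRC5, -0.27) in GFP cells at 48 h. In ZMYND8 cells 4 were higher and 1 lower at 48 h.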

How the data were processed

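RNA-seq count tables of 18 libraries from MDA-MB-231 cells were analysed, 12 from the inducible and 6 from the transient experiment, in 9 conditions of 2 replicates. The authors deposited unnormalised counts, in which each read pair adds to at most 1 gene, made with featureCounts 1.6.4 on GENCODE release 31 (hg38), with the reverse-stranded setting for both tables and without multi-mapping reads. Alignment was with TopHat per the methods and with HISAT2 after Trim Galore per the submitters' processing notes, so the aligner is unsettled. Read pairs that overlapped exons of more than 1 gene on the counted strand were left uncounted.

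Each experiment was fitted by itself with edgeR 4.0.16 in R 4.3.3: TMM scaling, filterByExpr and the quasi-likelihood test, with Benjamini-Hochberg adjustment over all genes tested and calls at an adjusted p of at most 0.05. All 45 members passed the filter in both. CPM are TMM-scaled. The pipeline was tested on simulated data. Values in every library are given for the 3 members of each role with the highest mean log2 CPM over the 12 inducible libraries and for every member whose interaction of ZMYND8 and doxorubicin was called, 35 in all. Members called against the direction of most are named, as are, of the other pathway genes, at most 4 per role called in GFP cells at 48 h. Further names were singled out after their values were seen. The result of 1 pathway gene is not reported here. Members, lists and roles were chosen with earlier results of these data known. Alternatives were other scalings, no filter, DESeq2 1.42.0, the criterion of the study (unadjusted p of at most 0.05 with a log2 change of at least 1.5, or 1.0 in the transient experiment), a replicate block, only the compared conditions, and leaving out libraries. Same-numbered libraries did not deviate together in the inducible experiment.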

Additional observations from a re-analysis of the deposited data

Results flagged for a closer look

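The response to doxorubicin differed between ZMYND8 and GFP cells by the interaction test in edgeR (adjusted p of at most 0.05 over all genes tested) for 12 members at 6 h, all with a higher response in ZMYND8 cells, and for 8 members with a higher and 22 with a lower response there at 48 h. Of all genes, 7.86% had a higher and 5.52% a lower response at 6 h, and 12.7% and 15.8% at 48 h. Each value is the log2 fold change in ZMYND8 cells minus that in GFP cells, so a higher response can be a smaller fall. All 12 members at 6 h had fallen in GFP cells. A lower response can be a larger fall, as for LGALS3BP at 48 h. At 6 h they were BST2 (0.21), EIF2AK2 (0.402), IFI6 (0.339), IFITM2 (0.256), IFITM3 (0.267), MX1 (0.715), MX2 (0.458), OASL (0.245), SAMD9 (0.402), SAMD9L (0.578), SP110 (0.512) and XAF1 (0.991). At 48 h the higher responses were EPSTI1 (0.818), IFITM2 (0.319), IFITM3 (0.583), MX1 (0.399), MX2 (0.688), PARP14 (0.269), SAMD9L (0.855) and STAT2 (0.335). The lower responses at 48 h were ADAR (-0.296), EIF2AK2 (-0.328), GBP1 (-0.67), HERC5 (-0.233), HERC6 (-0.87), IFI44 (-0.622), IFI44L (-2.57), IFI6 (-0.536), IFIT1 (-0.268), IFIT2 (-0.528), IFIT3 (-0.789), LGALS3BP (-0.211), OAS1 (-1.18), OAS2 (-0.479), OAS3 (-0.883), OASL (-0.488), PARP9 (-0.455), PLSCR1 (-0.441), RSAD2 (-2.3), SP110 (-0.547), USP18 (-1.18) and XAF1 (-0.499). Each construct is carried by 1 line, so line and construct cannot be told apart.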

How the results depend on the processing

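Counts of members are given as higher and lower. Counts of all genes called follow in brackets. Under the criterion of the study GFP cells had 0 and 2 at 6 h (266 and 619) and 9 and 0 at 48 h (1911 and 580). ZMYND8 cells had 0 and 0 (127 and 386) and then 9 and 0 (1904 and 432). Between the lines there were 13 and 3 untreated (805 and 1345) and 13 and 2 at 6 h (754 and 1240). At 48 h there were 10 and 4 (700 and 1075). The interaction gave 0 higher at 6 h (170) and 0 and 2 at 48 h (408 and 287). Transient doxorubicin gave 15 higher (841). ZMYND8 plus doxorubicin against doxorubicin gave 1 higher (10). The interaction at 6 h gave 6 and 4 with scaling by library totals (822 and 1730), 7 higher without a filter (1125) and 7 higher with DESeq2 (937). Transient doxorubicin gave 10 higher with scaling by library totals, 19 and 1 without a filter, and 2 higher with both second treated libraries left out. Leaving those out gave 1 lower for ZMYND8 plus doxorubicin against control and 9 higher against doxorubicin, where no filter gave 1 higher. Scaling by library totals reversed DDX60 at 48 h to 0.052 in GFP and 0.13 in ZMYND8 cells, and EIF2AK2 to 0.18 in ZMYND8 cells. The cause of these changes was not tested.

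Leaving out 1 library at a time gave 1 to 3 higher at 6 h in GFP cells, 6 to 11 higher and 0 to 1 lower for the interaction at 6 h, 1 to 19 and 0 to 1 for transient doxorubicin, 3 to 10 and 0 to 1 for ZMYND8 plus doxorubicin against control, and 0 to 3 higher against doxorubicin. The lone library left in a condition is assumed to vary like the others.

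With the replicate number as a block the inducible counts were the same as without it, for example 28 lower and 38 higher in GFP cells at 6 and 48 h. With the replicate block transient doxorubicin gave 15 higher and 1 lower, and ZMYND8 plus doxorubicin against control 26 higher and 1 lower. All genes called higher rose as well, from 468 to 1184 and from 605 to 1407. Deviations of same-numbered libraries correlated at -0.148 to 0.037 in the inducible and 0.206 to 0.423 in the transient experiment, where 2 numbers are too few to show pairing. A block with crossed numbers, chosen after seeing the data, gave 37 higher and 4 lower at 48 h in ZMYND8 cells. Also chosen afterwards, leaving out the 4 members with over 10% of exon bases shared on the same strand gave 36 higher and 4 lower in GFP cells at 48 h. With 2 libraries per condition and 5 shallow transient libraries, genes at a few CPM such as CMPK2 and IRF9 have wide errors.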
